A study of Mus musculus with 12 samples.

Results

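The replication and mitosis genes are 31 genes of the cell division cycle that were chosen by name, 13 that act in S phase, when DNA is copied, and 18 that act in mitosis, when the copied chromosomes are separated. They are 31 of 40800 genes in the count table, each on its own Ensembl gene ID, and 31 of the 14774 genes left for testing by a filter on low counts. Transcripts were counted by RNA sequencing of whole ventricles of mouse hearts at embryonic day 12.5. The control group held 6 libraries with the genotype label control, and the other group 6 libraries with the label wnt gof, Wnt gain of function. Both groups share tissue, age and RNA preparation. The labels name no engineered allele, Cre driver, strain or sex, and do not say whether a library holds ventricles of 1 embryo or of several, nor how right and left ventricle were combined. The p-values below therefore measure the spread between libraries, which may or may not be separate animals.

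A dividing cell loads the Mcm2 to Mcm7 helicase onto its replication origins with the help of Cdc6, activates it with Cdc45, and copies its DNA with polymerases that are held on the template by Pcna. It then builds up cyclin B and Cdk1, whose kinase activity starts mitosis, and leaves mitosis when Cdc20 turns on the ubiquitin ligase that destroys cyclin B. Transcripts of replication genes are usually driven by E2F factors and peak at the entry into S phase, whereas those of mitosis genes are held down by the DREAM complex through the cell cycle homology region (CHR) and peak later, in G2 and mitosis. Embryonic cardiomyocytes still divide and carry both programmes, and Wnt signalling is known as a regulator of their proliferation.

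The promoters of the members show this division into S phase and mitosis genes in their letters. RefSeq sequences of the build GRCm38.p6, from 250 bases before to 50 bases after the start, were found for 26 of 31 members, 11 of 13 replication and 15 of 18 mitosis genes. Mcm4, Ccne2, Ccna2, Aurkb and Kif20a were not matched. An E2F motif was searched as TTTCCCGC or TTTGGCGC or TTTCGCGC or TTTGCCGC, a CHR as TTTGAA or its variant TTCGAA, each on both strands, and the CCAAT box as CCAAT on both strands. Stretches of 150 bases before the start are shown for members described in full that hold an E2F or CHR match there, and for Mcm6, which was added after its sequence was seen because it holds several E2F matches. Each runs 5′ to 3′ on the strand of the gene, and capitals mark E2F and CHR matches in either orientation.
Cdc6, chr11:98908001-98908150, plus strand: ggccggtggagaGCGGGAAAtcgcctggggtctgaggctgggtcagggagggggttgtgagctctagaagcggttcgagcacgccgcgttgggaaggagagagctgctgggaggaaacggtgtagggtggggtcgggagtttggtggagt
Mcm6, chr1:128359706-128359855, minus strand: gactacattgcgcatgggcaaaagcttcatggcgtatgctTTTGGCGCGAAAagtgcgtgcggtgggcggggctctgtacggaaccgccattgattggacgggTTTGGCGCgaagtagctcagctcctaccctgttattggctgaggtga
Mcm2, chr6:88898781-88898930, minus strand: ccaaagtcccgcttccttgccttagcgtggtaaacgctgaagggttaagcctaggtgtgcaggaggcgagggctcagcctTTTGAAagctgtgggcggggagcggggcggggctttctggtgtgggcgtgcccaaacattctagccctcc
Cdk1, chr10:69352913-69353062, minus strand: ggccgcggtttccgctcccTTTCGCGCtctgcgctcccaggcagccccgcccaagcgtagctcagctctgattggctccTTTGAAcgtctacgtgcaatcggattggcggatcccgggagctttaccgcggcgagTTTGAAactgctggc
Mki67, chr7:135716380-135716529, minus strand: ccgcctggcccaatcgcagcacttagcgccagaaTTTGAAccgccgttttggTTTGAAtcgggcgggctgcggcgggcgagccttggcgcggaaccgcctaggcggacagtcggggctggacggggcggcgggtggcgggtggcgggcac
Kif11, chr19:37376232-37376381, plus strand: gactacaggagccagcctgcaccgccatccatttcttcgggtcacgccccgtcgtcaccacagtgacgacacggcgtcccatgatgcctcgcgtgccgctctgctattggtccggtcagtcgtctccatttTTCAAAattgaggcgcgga
Cdc20, chr4:118437344-118437493, minus strand: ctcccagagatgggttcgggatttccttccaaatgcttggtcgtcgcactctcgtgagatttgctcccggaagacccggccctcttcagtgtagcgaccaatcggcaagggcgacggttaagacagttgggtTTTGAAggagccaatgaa
In Cdc6 and Mcm6 the capitals are E2F matches, and the first pair of matches in Mcm6 overlap, so that they print as 1 run. In Mcm2, Mki67, Kif11 and Cdc20 they are CHR matches. Cdk1 holds both kinds.

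Among all members with a sequence, an E2F motif lay within 250 bases before and 50 after the start in 5 of 11 replication genes (45.5%), Mcm3, Mcm5, Mcm6, Mcm7 and Cdc6. It lay there in 1 of 15 mitosis genes (6.67%), Cdk1, and in 2.6% of the 27025 genes with such a sequence. A CHR was present in 12 of 15 mitosis genes (80%), in 3 of 11 replication genes (27.3%; Mcm2, Mcm7 and Cdc45) and in 21.7% of all genes. Birc5, Ccnb1 and Cenpe were the mitosis genes without one in this window. The CCAAT box was common in both, in 14 of 15 mitosis genes and 8 of 11 replication genes, against 41.1% of all genes. The same order held in wider lists of both processes, in which E2F motifs lay in 34.1% of 41 other replication genes and 9.43% of 53 other mitosis genes, and a CHR in 19.5% and 67.9%. A match describes the letters in the window and not a bound site.

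**Figure D1:**
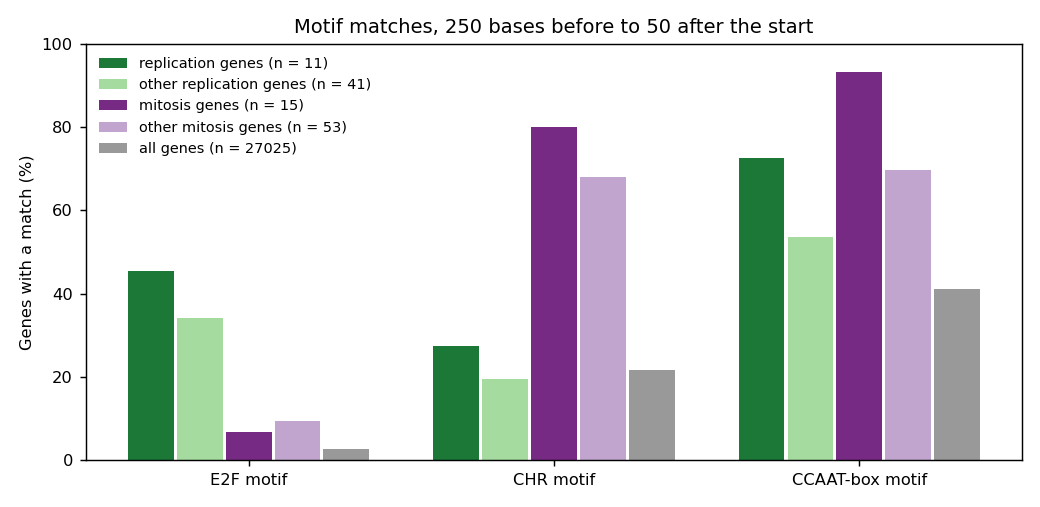
Share of genes (%) whose promoter sequence, from 250 bases before to 50 bases after the start, holds an E2F, CHR or CCAAT-box motif on either strand, for the replication and mitosis genes, the wider lists of both processes and all 27025 genes. The E2F bar is highest for the replication genes (45.5%) and the CHR bar for the mitosis genes (80%).

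Depth was 10130088 to 17526325 counts per control library and 12127026 to 17184662 per Wnt gain-of-function library. Axin2, a feedback inhibitor whose transcription responds to Wnt signalling, was higher in the Wnt gain-of-function libraries by 2.62 on the log2 scale (adjusted p = 0.0145, quasi-likelihood test of edgeR with Benjamini-Hochberg adjustment), which bears on the labels. Over all 14774 genes, 74 (0.501%) passed an adjusted p of 0.05 in that test, 64 of them higher (0.433%) and 10 lower (0.0677%) in Wnt gain of function. The libraries also differed in a way that genotype does not describe. Their deviations from the group means were clustered over 14551 genes that are in none of the lists used here. The number of sets was fixed at 3 and was not an outcome of the clustering. Each set held 2 libraries of each genotype: set A (controls 2 and 3, Wnt gain of function 1 and 2), set B (controls 4 and 5, Wnt gain of function 3 and 4) and set C (controls 1 and 6, Wnt gain of function 5 and 6). The labels give no batch that would correspond to them. The sets were not cleanly apart: correlations of the deviations ran from -0.06 to 0.65 within sets and from -0.63 to 0.17 between them. Set C was the loosest, since Wnt gain of function 5 was closer in counts to controls 4 and 5 of set B, with mean chi-squares per gene of 17.6 and 18.6, than to the members of its own set, with 31.5 to 59.4. Within set A, controls 2 and 3 were unusually close, as were Wnt gain of function 1 and 2, and in set B Wnt gain of function 3 and 4, with mean chi-squares per gene of 3.32, 3.10 and 3.07 against 12.8 or more in every other pair of libraries. About 1 would be sampling noise alone, and each library was counted as a sample. With these 3 pairs summed into 1 sample each, 0 genes were called higher in Wnt gain of function and 1 lower, so Axin2 was no longer called.

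All 31 members were well expressed in both groups, with 140 to 13799 counts in any library, so none was near the low-count filter. Per length of the merged exons, in RPKM (reads scaled to gene length and library size), Rrm2, a subunit of the enzyme that makes deoxynucleotides, had the highest level of the members, 203 ± 21.5 in controls (SD, n = 6). Ccnb2, a B-type cyclin, followed with 82.2 ± 5.12 RPKM, and Top2a, the topoisomerase that untangles chromosomes, with 81.9 ± 6.63 RPKM. This pair did not differ beyond their SD. Ccne1, a cyclin that starts S phase, was lowest with 7.25 ± 2.11 RPKM. The 6 helicase subunits act together as 1 ring, yet their transcripts ranged from 11.9 ± 0.927 RPKM for Mcm2 to 49.9 ± 6.66 RPKM for Mcm4 in controls. This range depends on the length divisor, 6956 bases for Mcm2 and 3589 for Mcm4. In CPM, which is not scaled to length, Mcm2 and Mcm4 were closer, at 82.7 ± 6.45 and 179 ± 23.9. The order of the highest members depends on length as well. In CPM, Top2a (738 ± 59.8) lay above Rrm2 (562 ± 59.6; SD, n = 6) in controls. Whether the merged exon lengths match the expressed transcripts was not tested.

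Neither the replication nor the mitosis genes differed detectably between control and Wnt gain-of-function ventricles. Of the 13 replication genes 0 passed the adjusted threshold and 0 had an unadjusted p under 0.05, where 0.501% and 6.3% of all tested genes did. Their log2 fold changes ran from -0.07 to 0.14 with a median of 0.02, and 7 lay above 0 and 6 below. Of the 18 mitosis genes 0 passed and 0 had an unadjusted p under 0.05, with log2 fold changes from -0.18 to 0.07, a median of -0.02, and 5 above and 13 below 0. The median over all genes was 0.0013. For each of the 31 members the 6 control values overlapped the 6 Wnt gain-of-function values, where 0.46% of all genes had no overlap. With DESeq2, which called 1.08% of all genes, and limma-voom, which called 0.0406%, 0 of 31 members passed as well. Since the libraries are of whole tissue, fewer dividing cells and less RNA per dividing cell could not be told apart if a level did differ.

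Among the genes that load and start the replicative helicase, Cdc6, the loading factor, had the largest positive log2 fold change of the members. Its level was lowest at 41.6, median 47.6 and highest at 60.4 CPM (counts scaled to library size) over the controls, and 45.3, 55.0 and 59.1 CPM over the Wnt gain-of-function libraries. The groups overlapped over most of their range, and the log2 fold change was 0.14 with an SE of 0.10 (95% interval -0.07 to 0.35; adjusted p = 0.999, edgeR). Mcm3, a helicase subunit, ranged over 164, 175 and 193 CPM in controls and 163, 188 and 217 CPM in Wnt gain of function. The lower ends were nearly the same, while 3 Wnt gain-of-function libraries, 1, 2 and 6, exceeded the highest control. The log2 fold change was 0.11 (SE 0.08, interval -0.07 to 0.28; adjusted p = 0.999). Mcm2, another subunit of the ring and a common marker of cycling cells, ranged over 74.8, 82.9 and 90.9 CPM against 74.3, 81.7 and 88.4 CPM, nearly the same span in both groups, with a log2 fold change of -0.02 (interval -0.18 to 0.13; adjusted p = 0.999). The remaining subunits Mcm4, Mcm5, Mcm6 and Mcm7 had log2 fold changes between -0.03 and 0.07. Mcm6, whose promoter stretch above holds several E2F matches, was the steadiest member, with 172 ± 6.04 CPM in controls and 168 ± 3.86 CPM in Wnt gain of function (SD, n = 6). Cdc45, which joins the ring when it starts to unwind DNA, ranged over 36.5, 46.8 and 52.9 CPM in controls and 35.4, 44.4 and 49.2 CPM in Wnt gain of function. The low end of both groups was set by set B, and the log2 fold change was -0.07 (SE 0.11, interval -0.31 to 0.17; adjusted p = 0.999).

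Pcna, the sliding clamp of the DNA polymerases, lay at 58.5, 65.8 and 88.3 CPM in controls and 58.8, 64.6 and 73.1 CPM in Wnt gain of function. Control 1 stood alone at the top, the groups otherwise overlapped, and the log2 fold change was -0.07 (SE 0.09, interval -0.27 to 0.13; adjusted p = 0.999). Counts of its processed copy Pcna-ps2 went the other way in that library, at 2.83 CPM in control 1 against 14.5 to 26.1 CPM in the other controls and 14.2 to 17.6 CPM in Wnt gain of function, and the part of reads shared between the copies was not tested. The sum of both features ran from 73.4 to 91.1 CPM in controls and from 74.1 to 89.5 CPM in Wnt gain of function. The nucleotide-making enzymes Rrm2 (562 ± 59.6 and 589 ± 144 CPM) and Tyms (148 ± 13.1 and 153 ± 14.2 CPM; SD, n = 6) had log2 fold changes of 0.07 and 0.05. The SD of Rrm2 was larger in Wnt gain of function because Wnt gain of function 1 and 2 were its highest libraries and 3 and 4 its lowest. Of the E cyclins, which drive Cdk2 at the entry into S phase, Ccne1 was at 19.3 ± 5.62 and 19.1 ± 4.45 CPM and Ccne2 at 121 ± 13.5 and 118 ± 11.4 CPM (SD, n = 6). Their log2 fold changes were -0.02 and -0.05, and the interval of Ccne1, -0.43 to 0.40, was the widest of all members.

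**Figure D2:**
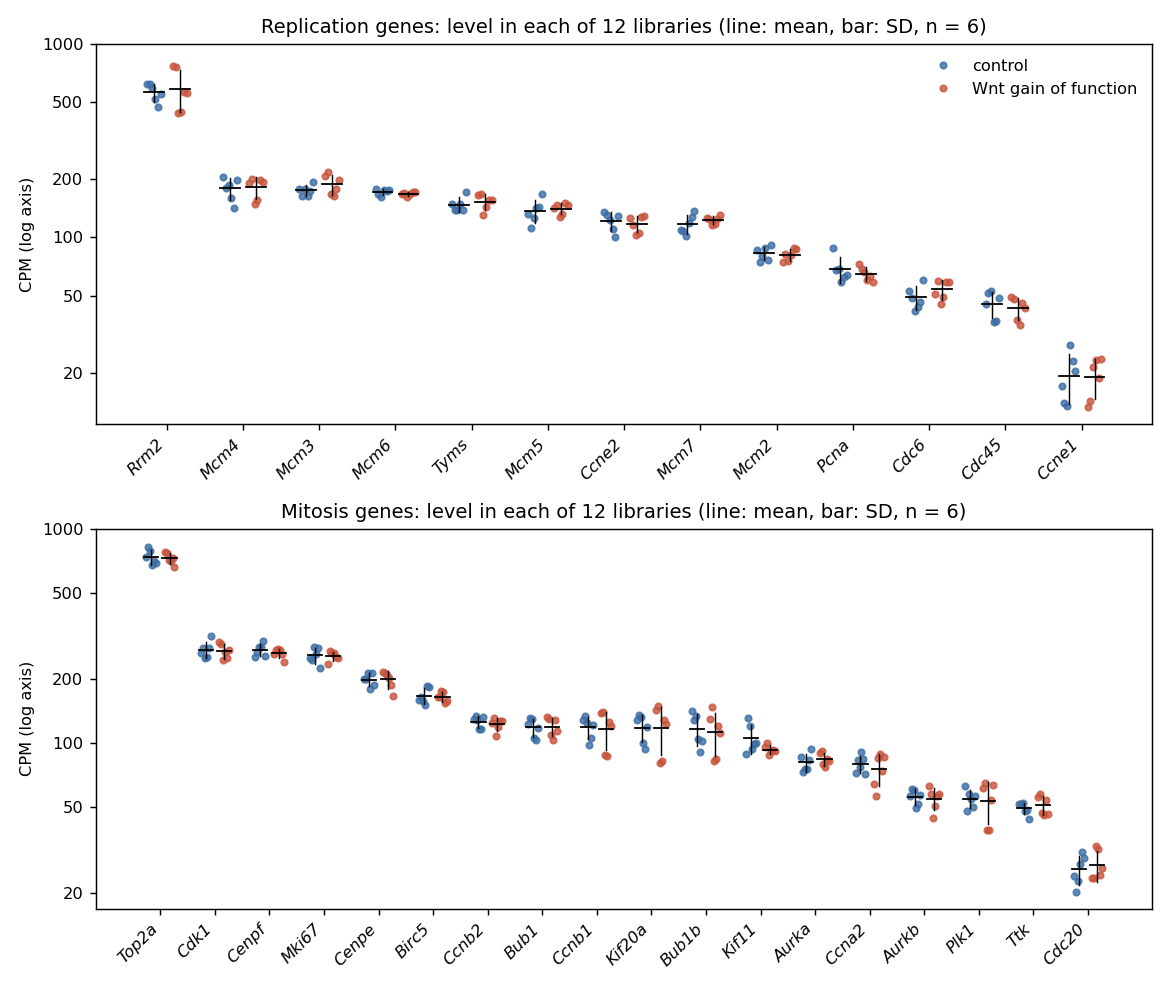
Level in CPM (log axis) of each replication gene (top) and mitosis gene (bottom) in the 12 libraries, with points for libraries, lines for the group mean and bars for the SD (n = 6). The ranges of control and Wnt gain of function overlap for every one of the 31 genes.

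The genes that start mitosis were as close between the groups. Cdk1, the mitotic kinase, lay at 250.4, 270.2 and 316 CPM in controls and 244, 268 and 296 CPM in Wnt gain of function, with a log2 fold change of -0.02 (interval -0.18 to 0.14; adjusted p = 0.999). Its partner Ccnb1 lay at 97.7, 123 and 133 CPM against 87.1, 123 and 139.8 CPM, with a log2 fold change of -0.02 (interval -0.29 to 0.24; adjusted p = 0.999). The medians of Ccnb1 were the same to 3 digits, while its spread was wider in Wnt gain of function, where libraries 3 and 4 were lowest and 1 and 2 highest. Ccna2, the cyclin of S phase and G2, lay at 71.9, 80.2 and 90.4 CPM in controls and 56.9, 79.5 and 88.6 CPM in Wnt gain of function. Wnt gain of function 1 and 2 lay below all controls, and the log2 fold change was -0.08 (SE 0.11, interval -0.30 to 0.15; adjusted p = 0.999). Ccnb2, the kinase Plk1 and the spindle-pole kinase Aurka had log2 fold changes of -0.04, -0.03 and 0.05.

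Kif11, the motor that pushes the spindle poles apart, came nearest to a difference. It lay at 88.6, 99.8 and 130.4 CPM in controls and 87.9, 92.1 and 99.998 CPM in Wnt gain of function, with a log2 fold change of -0.18 (SE 0.09, interval -0.37 to 0.02). The unadjusted p was 0.0684 and the adjusted p 0.863 (edgeR), the lowest of the members and far from the threshold. The upper end of the controls came from controls 2 and 3, at 130.4 and 119.9 CPM, 1 of the unusually close library pairs, and the other 4 controls lay within or next to the range of the Wnt gain-of-function libraries. Without control 2 the log2 fold change of Kif11 was -0.10 and without control 3 -0.13, while without control 1 it was -0.23 (adjusted p = 0.586, edgeR) and without control 4 -0.21 (adjusted p = 0.732).

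Of the spindle checkpoint genes, Ttk, the kinase that starts the checkpoint, lay at 44.1, 50.2 and 52.6 CPM in controls and 45.9, 50.7 and 57.8 CPM in Wnt gain of function, overlapping over nearly the whole range (log2 fold change 0.05, SE 0.08, interval -0.12 to 0.22; adjusted p = 0.999). Bub1 and Bub1b, which act in the same checkpoint, had log2 fold changes of 0.01 and -0.06, and the kinetochore proteins Cenpe and Cenpf 0.003 and -0.05. Cdc20, which the checkpoint holds inactive and which then opens the way out of mitosis, lay at 20.2, 25.6 and 30.9 CPM against 23.3, 25.1 and 33.1 CPM. It had the largest positive log2 fold change of the mitosis genes, 0.07 (SE 0.12, interval -0.19 to 0.33; adjusted p = 0.999), with the medians in the opposite order. Aurkb and Birc5, the kinase and the survivin subunit of the chromosomal passenger complex, were at -0.03 and -0.02, and Kif20a, a motor of cytokinesis, at -0.0014. Among chromosome proteins, Top2a was at -0.02. Mki67, the coat protein of mitotic chromosomes used as the standard marker of proliferation, lay at 223, 256 and 282 CPM in controls and 234, 258 and 268 CPM in Wnt gain of function. The Wnt gain-of-function libraries all fell inside the control range, and the log2 fold change was -0.01 (SE 0.07, interval -0.16 to 0.14; adjusted p = 0.999).

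If every library is a separate sample, the intervals bound what could have been missed. The unusually close library pairs may not be separate, and the intervals may then be too narrow. Intervals with those pairs summed are not given here. All 31 intervals of 95% lay within 0.5 on the log2 scale on either side of 0, 13 of 13 for replication and 18 of 18 for mitosis, and 7 and 11 lay within 0.25. Of all tested genes, 64.1% had intervals within 0.5 and 22.1% within 0.25. Among the 7114 tested genes in the same range of abundance, 91.4% had intervals within 0.5, and their share within 0.25 is not given here. The widest interval, of Ccne1, allowed a fold from 0.742 to 1.32. A change confined to a small fraction of the ventricular cells was not detectable in such whole-tissue levels. The summed level of the replication genes was 1876 ± 114 CPM in controls and 1923 ± 226 CPM in Wnt gain of function, and that of the mitosis genes 2953 ± 127 and 2906 ± 159 CPM (SD, n = 6). In the authors' deposited table, which comes from their own fit, 0 of 31 members had an adjusted p under 0.05, the lowest being 0.882 for Kif11 at a log2 fold change of -0.16. In that table Cdc6 was at 0.14, and the values for the members differed from those given here by at most 0.03 (Kif20a). The sign differed for 1 member, Ccne1, which lay near 0 in both.

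**Figure D3:**
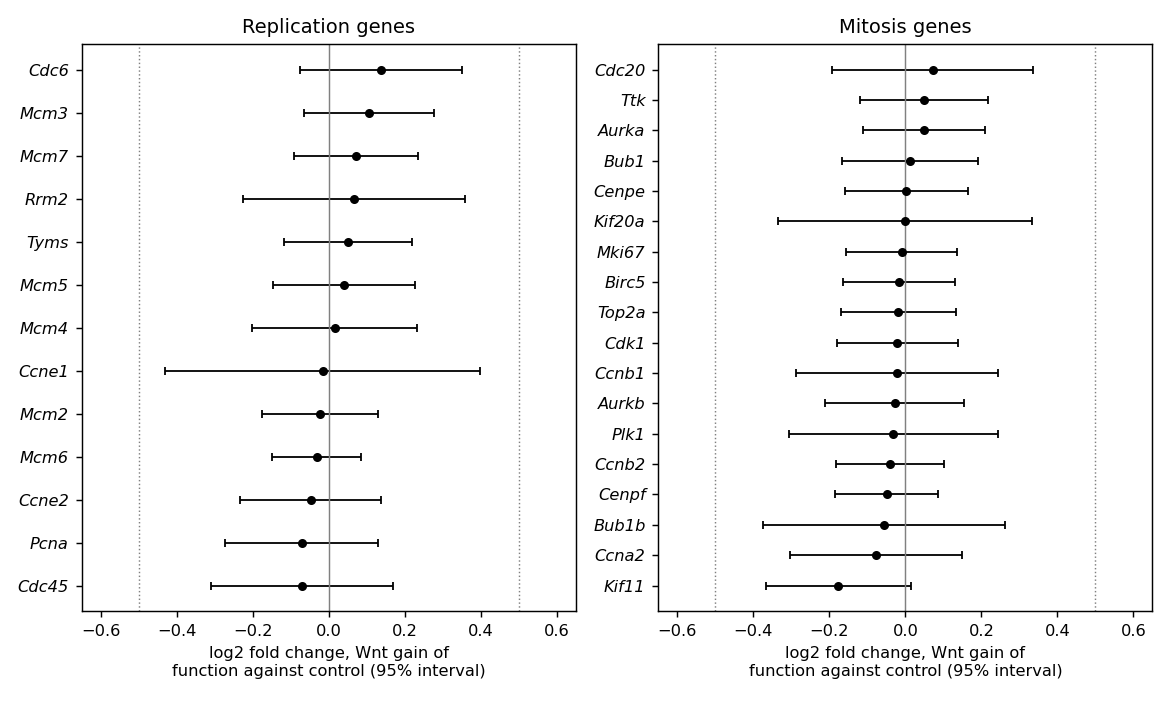
Log2 fold change of each member, Wnt gain of function against control, with 95% intervals from the edgeR fit over all genes, for replication genes (left) and mitosis genes (right). Dotted lines mark 0.5 on either side of 0, and every interval lies between them and crosses 0.

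The libraries of 1 genotype differed among themselves, and many members varied along the library sets. The coefficient of variation had a median of 11.4% in controls and 9.73% in Wnt gain of function for the replication genes, and 8.91% and 9.78% for the mitosis genes. Counting error made up a median of 5.4% to 9.66% of the variance between libraries across both lists and groups, so most of that variance was not counting error. The values of set A and set B, 4 libraries each, did not overlap for 6 of 13 replication genes (46.2%) and 10 of 18 mitosis genes (55.6%), against 33.9% of all tested genes. The direction was uneven. Of the mitosis genes 8 were lower and 2 higher in set B without overlap, and of the replication genes 5 were lower and 1 higher, where 17.2% of all genes were lower and 16.8% higher. The median log2 difference of set B from set A was -0.17 for mitosis, -0.12 for replication and -0.01 for all genes. The sets were defined from the data and hold the unusually close pairs, so these values describe the 12 libraries and carry no test.

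The mitosis genes that separated the sets most were Kif20a, Bub1b and Ccnb1. Kif20a lay at 132 to 149 CPM in set A, 119 to 129 CPM in set C and 80.8 to 99.8 CPM in set B, a log2 difference of B from A of -0.65. Bub1b lay at 128 to 147 CPM in set A and 82.1 to 105 CPM in set B, and Ccnb1 at 124 to 139.8 CPM and 87.1 to 105 CPM. In the same direction without overlap were Bub1, Aurkb, Ttk, Top2a and Ccnb2. Cdc20 and Ccna2 went the other way. Cdc20 lay at 20.2 to 23.3 CPM in set A and 27.2 to 33.1 CPM in set B, a log2 difference of 0.45, so its order over the sets was the reverse of that of the cyclin B whose destruction it directs. The difference between the sets had the same sign in the control and the Wnt gain-of-function libraries for 16 of 18 mitosis genes. The share of all tested genes with the same sign is not given here. The sets were clustered from both genotypes together, so this count is not read as a trait of the mitosis genes. Mki67, in contrast, was at 234 to 282 CPM in set A and 262 to 278 CPM in set B, so the standard proliferation marker did not follow Kif20a and Ccnb1.

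Among the replication genes, Rrm2, Cdc45, Mcm4, Ccne2 and Pcna were lower in set B without overlap. Rrm2 lay at 595 to 765 CPM in set A and 441 to 517 CPM in set B, a log2 difference of -0.54. Cdc45 lay at 47.9 to 52.9 CPM and 35.4 to 37.2 CPM, and the sets accounted for 96.5% of its variance within the groups, the most of the members. The median of that share was 57.5% for the replication genes, 69.5% for the mitosis genes and 44.4% for all tested genes. Ccne1 was the exception, at 13.3 to 14.2 CPM in set A and 21.4 to 27.9 CPM in set B, a log2 difference of 0.77, while Ccne2, the other E cyclin, had -0.24. Of the helicase subunits only Mcm4 was lower in set B without overlap, and Mcm3 at -0.19 overlapped. Mcm2, Mcm5, Mcm6 and Mcm7 had differences from 0.03 to 0.06 over both genotypes, which average opposite signs. Mcm5 was at 0.27 in the controls and -0.15 in Wnt gain of function, and Mcm7 at 0.23 and -0.11. The sign was shared by both genotypes for 8 of 13 replication genes, again without a share over all genes beside it.

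**Figure D4:**
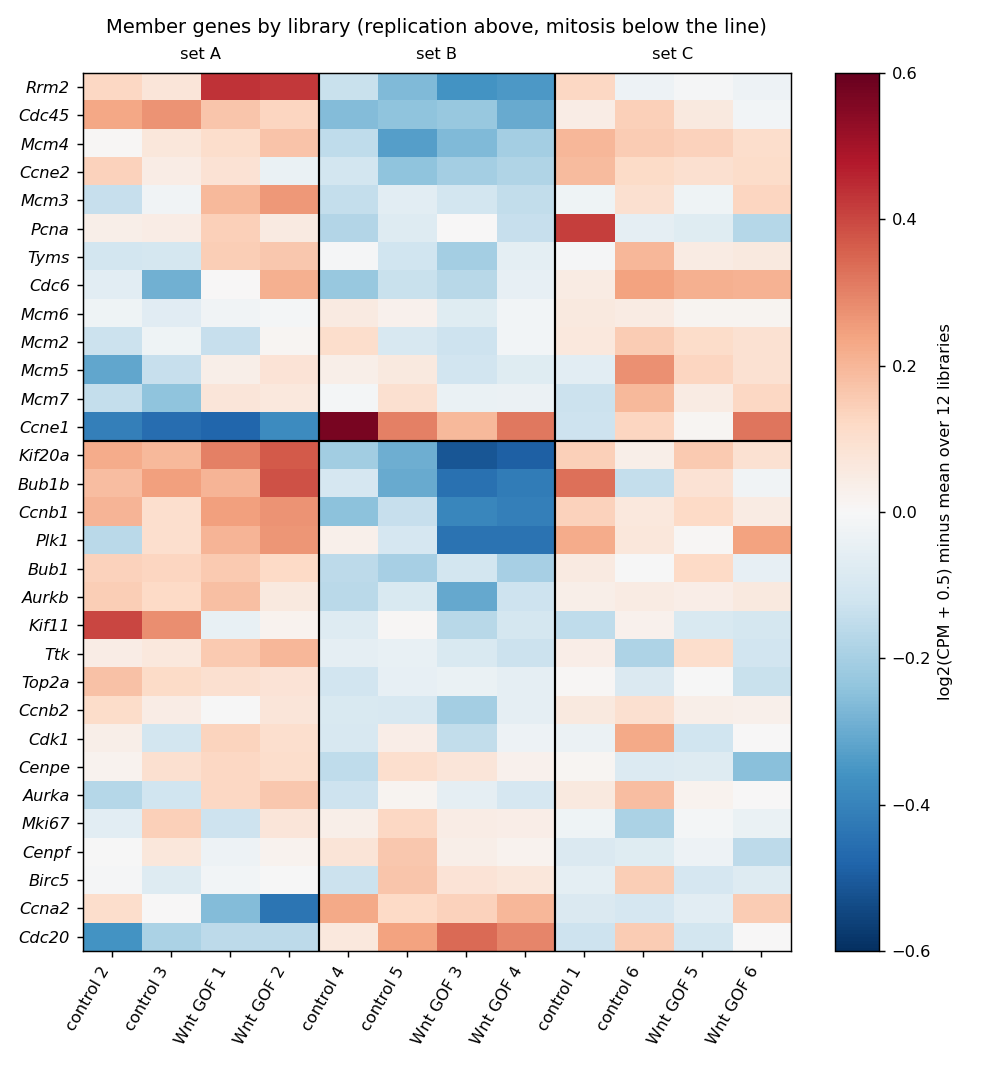
Deviation of log2(CPM + 0.5) from the mean over 12 libraries for each member (rows; replication above, mitosis below the line) and library (columns, by set). In set B Kif20a, Bub1b, Ccnb1, Rrm2 and Cdc45 are low and Ccne1 and Cdc20 high, in control and Wnt gain-of-function libraries alike.

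The comparison of the genotypes within each set gave small values of either sign. The median log2 difference of Wnt gain of function from control was 0.10 in set A, -0.07 in set B and -0.04 in set C for the replication genes, and 0.04, -0.05 and -0.03 for the mitosis genes. Rrm2 was at 0.33 in set A, -0.15 in set B and -0.07 in set C, Plk1 at 0.26, -0.41 and -0.02, and Ccna2 at -0.40, -0.0044 and 0.14. Each of these rests on 2 libraries against 2. In set A both sides are unusually close pairs, as is the Wnt gain-of-function side of set B, so the separate samples may be fewer. With the sets as a block in the edgeR fit, 295 of all genes (2%) passed the adjusted threshold and 0 of 31 members did. Kif11 had the lowest adjusted p of the members there, 0.201, at a log2 fold change of -0.17 (interval -0.29 to -0.04), and Cdc6 was at 0.14 with an adjusted p of 0.396. These were the 2 members with an unadjusted p under 0.05 in that fit (0.0133 and 0.0497), where 12.6% of all genes had one. The sets were clustered from the same deviations that this fit takes as its noise. Its p-values may therefore be too small and its intervals too narrow, also that of Kif11. The fit with sets as a block also counted each library of the close pairs as a sample.

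The summed levels of both lists were lower in set B than in set A. The summed replication genes lay at 1869 to 2174 CPM in set A and 1642 to 1791 CPM in set B. Set C lay at 1941 to 2012 CPM. The summed mitosis genes lay at 3073 to 3127, 2760 to 2917 and 2796 to 2949 CPM, so set C overlapped set B there. Rrm2 was the largest part of the replication sum. In mean log2 CPM of the replication genes, which weights genes equally, control 4 (6.698) lay above controls 2 and 3 (6.673 and 6.669). In Wnt gain of function set B (6.603 and 6.639) stayed below set A (6.792 and 6.822). By single genes, the extremes were spread over nearly all libraries, with the most in Wnt gain of function 3, lowest of the 12 for 9 members, and control 6, highest for 7. Erythroid RNA differed widely between libraries and separated set A from set B, but set C spanned the whole range of set B. The summed erythroid markers, 11 of 12 of which were tested with 0 called between the genotypes, took 9722 to 12943 CPM in set A, 36686 to 75641 CPM in set B and 13944 to 91318 CPM in set C. The library with the most, Wnt gain of function 5, was neither highest nor lowest of the 12 for any of the 31 members. Cardiomyocyte markers also separated set A (42099 to 46511 CPM) from set B (35758.5 to 38280 CPM), with set C at 33160 to 38468 CPM. Epicardial markers did so in the other direction, at 318 to 360 CPM in set A, 392 to 463 CPM in set B and 404 to 434 CPM in set C. Endocardial, cushion mesenchyme and leukocyte marker sums overlapped between sets A and B. The part of erythroid RNA, or of these other markers, in the differences between sets was not tested. With the haemoglobin genes left out of the fit, 0 members passed between the genotypes.

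**Figure D5:**
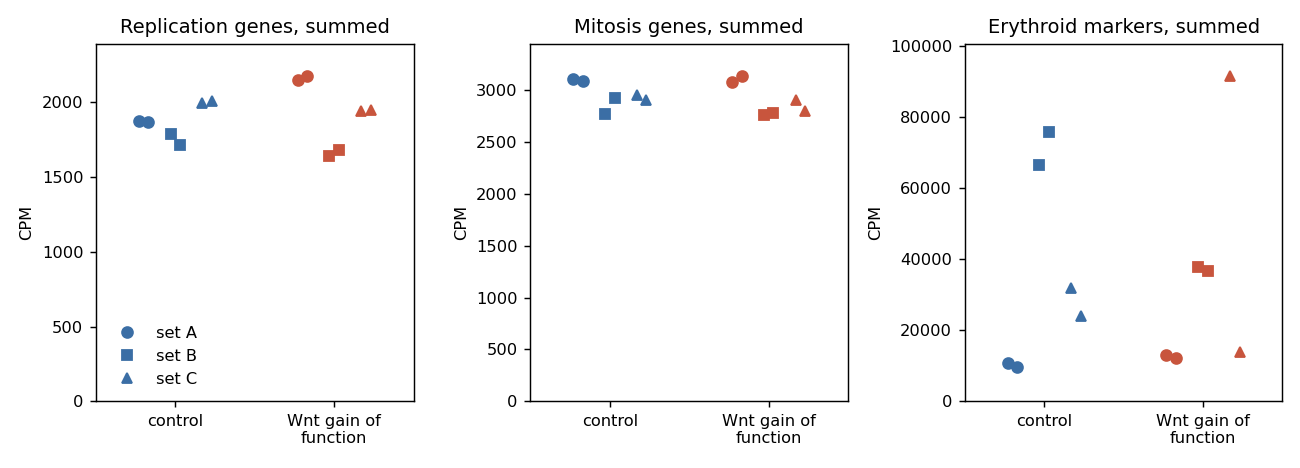
Summed level in CPM, from 0, of the replication genes, the mitosis genes and the erythroid markers in each library, by genotype and by set (marker shape). Set B is lowest in the first panel in both genotypes, and erythroid RNA spans 9722 to 91318 CPM.

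Marker sums of other cell types overlapped between the groups. Cardiomyocyte markers summed to 34469 to 46511 CPM in controls and 33160 to 43005 CPM in Wnt gain of function, so both held abundant heart muscle RNA. Endocardial and endothelial markers summed to 820 to 915 and 897 to 975 CPM, and of the controls only control 3 reached the Wnt gain-of-function range. Cushion mesenchyme markers summed to 2117 to 2975 and 1815 to 2457 CPM, with 10 of 10 log2 fold changes below 0 (median -0.14). Epicardial markers summed to 318 to 463 and 352 to 434 CPM. Leukocyte markers were low, at 59.4 to 81.6 and 62.0 to 114 CPM, with 0 of 10 called. An unadjusted p under 0.05 was found for 5 of 10 of them, where 6.3% of all tested genes had one. Their log2 fold changes were centred on a median of 0.39. In every one of these lists 0 genes passed the adjusted threshold. Their part in the levels of the dividing-cell genes was not tested.

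The wider machinery behaved like the members. Of 50 other replication genes, such as origin, polymerase and clamp-loader subunits, 0 passed the adjusted threshold and 0 had an unadjusted p under 0.05, with a median log2 fold change of -0.0009. The lowest p above 0 belonged to Rfc3, a clamp-loader subunit, at 65.6 ± 6.70 and 71.7 ± 2.16 CPM (log2 fold change 0.13, adjusted p = 0.930, edgeR), and the lowest below 0 to Rpa3, of the single-strand binding complex, at -0.12. Of 61 other mitosis genes 0 passed and 1 had an unadjusted p under 0.05, with 18 above and 43 below 0 and a median of -0.04. That gene was Spc25, a subunit of the Ndc80 kinetochore complex, at 156 ± 7.13 CPM in controls and 139 ± 6.33 CPM in Wnt gain of function (SD, n = 6; log2 fold change -0.16, adjusted p = 0.493). Above 0, the lowest p of these genes belonged to Kif15, at 63.4 ± 3.00 and 68.2 ± 7.85 CPM (log2 fold change 0.10, adjusted p = 0.999, edgeR). Of 20 E2F, DREAM and MuvB regulators, which read the motifs printed above, 0 passed and 0 had an unadjusted p under 0.05. E2f1, an activator of replication genes, was at 12.7 ± 2.60 and 15.5 ± 3.34 CPM (log2 fold change 0.29, interval -0.04 to 0.63, adjusted p = 0.911), and E2f6, a repressor, at 42.9 ± 7.45 and 34.1 ± 10.002 CPM (-0.33, interval -0.70 to 0.04, adjusted p = 0.887). Both intervals reached beyond 0.5, so these regulators were bounded less tightly than the members.

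Exons of several members overlap those of other genes in the GENCODE annotation. Kif20a overlaps Cdc23 over 29.3% of its length, Ccne2 overlaps Ints8 over 17.4% and Ccna2 overlaps Exosc9 over 12.5%. Mcm7 overlaps Ap4m1, Cops6, Mir25 and Mir93 over 12.6%. Smaller overlaps were found for Plk1 (7.09%), Cdc45 (5.96%), Cdc20 (2.84%) and Top2a (1.35%). Whether reads were counted by strand is not given in the sources used here, so the levels of these genes are less certain.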

How the data were processed

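Bulk RNA-seq libraries of mouse embryonic ventricles, 6 control and 6 Wnt gain of function, were grouped by genotype, per the labels. The deposited table gives read counts per Ensembl gene, per the file headers, and the submitters' processing notes name Subread, featureCounts and edgeR. The aligner options, genome build, annotation and strand setting were not given in the sources used here. Its 41422 rows hold 40800 IDs, and 622 repeated rows (402 IDs) were left out. Its deposited GC percent column was not used. The comparison table deposited by the authors holds log2 fold changes, log2 expression, p-values and adjusted p-values, per the file headers, and statistical scores that were not used.

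Counts were filtered with filterByExpr (minimum count 10), scaled by TMM and tested with the quasi-likelihood test of edgeR 4.0.16 in R 4.3.3, with genotype as the only term, Benjamini-Hochberg adjustment over all 14774 tested genes and a threshold of 0.05. CPM uses TMM-scaled library sizes, and log2 deviations a pseudocount of 0.5. RPKM divides CPM by merged exon lengths of GENCODE vM21 (GRCm38), matched by gene ID. The test was checked on simulated data with independent libraries, which held no library sets and no unusually close pairs. That check does not cover these features of the real libraries. The members and the other lists were chosen with earlier results of these data known. All 31 members are named. Full statistics are given for Mki67, Pcna, Mcm2, Cdk1, Ccnb1 and the 2 most positive and 2 most negative members of each list, and the wider lists are represented by genes of lowest p in each direction. At most 6 promoters followed the rule, and Mcm6 was added. Alternatives were DESeq2 1.42.0, limma-voom (limma 3.58.1), other scalings, filters and thresholds, the replicate number as a block, haemoglobin genes left out and each library left out. The library sets, their use as a block, the closest pairs summed and Pcna-ps2 added to Pcna were chosen after seeing the data.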

Additional observations from a re-analysis of the deposited data

Results flagged for a closer look

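In groups of 6 libraries, a library was picked out when its gap to the nearest other library, divided by the range of the group, exceeded the 95% critical value of Dixon's test, which chance alone exceeds in about 1 in 20 groups. Of 84 groups examined, 4 were picked out. Pcna in control 1 was at 88.3 CPM with the nearest control at 68.4 CPM (ratio 0.669). Tyms, thymidylate synthase, was at 172 CPM in control 6 with the nearest control at 149 CPM (ratio 0.676). Cenpf was lowest in Wnt gain of function 6, at 239 CPM with the nearest library of its group at 261 CPM (ratio 0.647). The summed erythroid markers took 91318 CPM in Wnt gain of function 5, with the nearest library of its group at 37755 CPM (ratio 0.677).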

How the results depend on the processing

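Over 25 alternatives, 12 that left out 1 library each and 13 others, 0 members passed the adjusted threshold, and all 775 member values stayed within 1 SE of those reported. Among them, the adjusted p of 0.01 reused the reported fit, so its member values and its 0 calls were fixed in advance. The sign of the log2 fold change turned in at least 1 alternative for 17 members, with reported values from -0.07 (Pcna) to 0.07 (Rrm2). It turned in none for the other 14, some of which lay closer to 0 than Pcna, such as Mcm6 at -0.03. The lowest adjusted p of any member was 0.201, for Kif11 with the library sets as a block. The median log2 fold change ran from -0.01 to 0.07 for replication and from -0.04 to 0.01 for mitosis with 1 library left out. The 64 of all genes called higher and the 10 of all genes called lower became 135 and 25 with DESeq2, 3 and 3 with limma-voom, 97 higher without a low-count filter, 8 and 2 at an adjusted p of 0.01, and, both chosen after seeing the data, 195 and 100 with library sets as block and 0 and 1 with the closest pairs summed (600 at an unadjusted p under 0.05 there). With 1 library left out they ran from 34 to 149 higher and 4 to 28 lower, the most without Wnt gain of function 5 and the fewest higher without Wnt gain of function 2. Replicate numbers shared by both groups did not pair the libraries, with correlations of same-numbered deviations from -0.403 to 0.487. With that number as a block, 47 genes were called higher, 8 lower and 0 members, and Kif11 was at -0.16 (adjusted p = 0.947, edgeR). Counting error, which depth sets, made up 0.204% (Rrm2 in Wnt gain of function) to 81% (Mcm6 in Wnt gain of function) of the variance between libraries.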
